A study of Mus musculus with 18 samples.

Results

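The genes described are 7 members of the Pax family of the mouse, Pax1, Pax2, Pax3, Pax4, Pax5, Pax7 and Pax8, out of 20665 autosomal protein-coding genes in the gene table used. They were listed by name, and every interval of trimethylated lysine 27 of histone H3 (H3K27me3) that overlapped a gene body, extended by 2500 bp on each side, by at least 1 bp was taken as belonging to the gene. The genes were chosen by name with the H3K27me3 counts and covered bases of these same libraries known, those at the 3′ end of Pax5 above all, so levels and the Pax5 pattern are given as descriptions. The mark was profiled by CUT&Tag, in which an antibody guides a transposase to chromatin, in the medial ganglionic eminence (MGE), the embryonic forebrain region that makes many cortical and striatal interneurons. There were 3 wild-type (WT) and 3 Ezh2 knockout (KO) libraries at each of 2 stages, E12.5 and E15.5 (E for embryonic day), all labelled as biological replicates. Of the 18 samples, the 6 from heterozygotes were left aside.

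KO embryos carried the genotype written Nkx2.1-CreC/+;Ezh2;Ai9F/+ in the labels. Both genotypes came from Nkx2.1-CreC/C;Ezh2F/+ males and Ai9F/F;Ezh2F/+ females, so by that cross the WT embryos also received 1 Cre allele and 1 Ai9 allele, a reporter that turns Tomato on after Cre. Cre driven by Nkx2-1 acts only in cells of that lineage, and other cells in the dissected tissue keep Ezh2. The whole MGE was taken at E12.5, whereas at E15.5 the dissection was restricted under fluorescence to Tomato-positive MGE, and MGEs of one genotype could be combined into 1 sample. Stage and dissection therefore cannot be told apart. The Ezh2 gene itself had no interval in any of the 12 libraries, so these data hold no check of its deletion.

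Ezh2 is the main catalytic subunit of Polycomb repressive complex 2, which places H3K27me3 over developmental regulators that a tissue does not use. Pax genes encode transcription factors with a paired DNA-binding domain, each used in a few organs: Pax1 in the sclerotome and thymus, Pax2, Pax5 and Pax8 in the midbrain-hindbrain boundary, kidney, thyroid, inner ear and B cells, Pax3 and Pax7 in dorsal neural tube, neural crest and muscle, and Pax4 in pancreatic islets. Pax6, in forebrain progenitors, and Pax9, a relative of Pax1, are the other family members and serve here for comparison. RNA was not measured, so the term silent was not tested for any of these genes.

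The promoter table used (RefSeq, assembly GRCm38.p6) holds 7 start sites of 5 of the 7 genes, and the 300 bases around each of them, 250 before to 50 after, overlapped an H3K27me3 interval by at least 1 bp in all 12 libraries. Among all 20085 such promoters, 7.24% did so. Promoters with an interval in every library held a median of 20 CG dinucleotides, those with an interval in 1 to 11 libraries a median of 21, those with none a median of 8, and all promoters a median of 14. The sequences of 4 promoters are printed to show how unlike each other the marked Pax promoters are, with each CG in capitals (CG reads the same on both strands, and 95.6% of all promoters hold at least 1). The Pax5 promoter, chr4:44710645-44710944 on the minus strand, holds 23 CG, more than 69.8% of promoters. The Pax8 promoter, chr2:24475550-24475849 on the minus strand, holds 7, more than 34.8% of promoters. The third Pax2 start site, chr19:44756656-44756955 on the plus strand, holds 30, and the Pax1 promoter, chr2:147364744-147365043 on the plus strand, holds 13.
Pax5: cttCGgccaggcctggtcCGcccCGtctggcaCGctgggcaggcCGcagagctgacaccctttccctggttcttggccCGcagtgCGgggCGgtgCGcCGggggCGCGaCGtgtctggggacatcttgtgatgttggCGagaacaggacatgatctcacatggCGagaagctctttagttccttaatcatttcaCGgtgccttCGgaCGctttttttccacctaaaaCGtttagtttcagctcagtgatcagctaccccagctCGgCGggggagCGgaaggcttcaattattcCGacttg
Pax8: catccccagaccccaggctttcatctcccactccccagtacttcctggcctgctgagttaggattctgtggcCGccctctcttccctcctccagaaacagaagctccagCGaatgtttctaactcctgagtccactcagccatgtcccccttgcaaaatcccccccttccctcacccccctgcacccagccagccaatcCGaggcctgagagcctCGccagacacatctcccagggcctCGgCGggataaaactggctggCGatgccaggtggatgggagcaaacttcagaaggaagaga
Pax2: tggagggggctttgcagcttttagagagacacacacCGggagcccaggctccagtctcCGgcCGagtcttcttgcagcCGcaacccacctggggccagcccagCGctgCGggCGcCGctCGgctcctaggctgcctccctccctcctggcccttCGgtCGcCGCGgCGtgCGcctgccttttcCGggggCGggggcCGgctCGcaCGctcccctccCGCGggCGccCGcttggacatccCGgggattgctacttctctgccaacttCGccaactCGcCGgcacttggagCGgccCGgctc
Pax1: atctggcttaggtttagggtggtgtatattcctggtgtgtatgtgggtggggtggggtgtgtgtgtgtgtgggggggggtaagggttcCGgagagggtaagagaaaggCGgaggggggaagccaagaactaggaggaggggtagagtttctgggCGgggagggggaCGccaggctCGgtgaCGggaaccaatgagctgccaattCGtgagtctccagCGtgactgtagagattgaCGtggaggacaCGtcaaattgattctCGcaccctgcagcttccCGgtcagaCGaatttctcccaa
The observed number of CG over that expected from the base composition was 0.88 for Pax5, 0.79 for this Pax2 promoter, 0.64 for Pax1 and 0.29 for Pax8. The other Pax2 promoters held 7 and 23 CG, and the Pax7 promoter, chr4:139832919-139833218 on the minus strand, held 17. So an interval covered CG-rich and CG-poor Pax promoters alike.

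The libraries differed in depth. They held 5008 to 13289 intervals with 573838 to 6846250 counts, and the mean count per 200 bp window, recovered from the deposited scores and used as the depth, ran from 0.117 to 0.698 in E12.5 WT, 0.212 to 0.272 in E12.5 KO, 0.0751 to 0.15 in E15.5 WT and 0.179 to 0.346 in E15.5 KO. Counts were scaled to the mean depth and are called normalised counts. They are sums over called intervals only, and an interval that reaches beyond the gene window is counted whole. The microglial genes Csf1r and Aif1 and the blood and vessel genes Hbb-bt and Pecam1 had no interval in any library. The microglial gene Spi1 had one in 1 library, and the vessel genes Cldn5, at 197 to 494 normalised counts, and Kdr, at 135 to 350, had intervals in all 12. The MGE markers Nkx2-1 and Lhx6 also had intervals in all 12, so the mark over a marker gene does not show whether its cells were present.

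Of the 7 genes, 6 had intervals in all 12 libraries, as had 2492 of the 20665 genes, whose median level was 236 normalised counts (quartiles 94.8 and 846). Pax3 ranked 40 among the 2492, Pax2 43, Pax7 45, Pax1 143, Pax5 165 and Pax8 535. Per kb of interval, the mean over 12 libraries was 231 normalised counts for Pax1 (SD 41), 188 for Pax2 (SD 60.8), 160 for Pax3 (SD 23.7), 148 for Pax7 (SD 38.4), 79.1 for Pax5 (SD 22.6) and 64.1 for Pax8 (SD 26.6). In this order Pax1, Pax2, Pax3 and Pax7 each lay within the larger SD of the next, as did Pax5 and Pax8, while the step from Pax7 to Pax5 was larger than either SD. The value pools all intervals of a gene, so this step is not one between start-site intervals. In E12.5 WT replicate 1 the Pax5 start-site interval held 4766 of 5070 normalised counts in 24.4 of 43.6 kb. Pax8 had only its start-site interval there, at 135 normalised counts per kb. Pax4 was the exception, with an interval in 5 of 12 libraries. Pax6 had 273 normalised counts per kb (SD 43.4) and Pax9 had 206 (SD 41.8), so the 2 other family members carried dense marking as well.

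**Figure D1:**
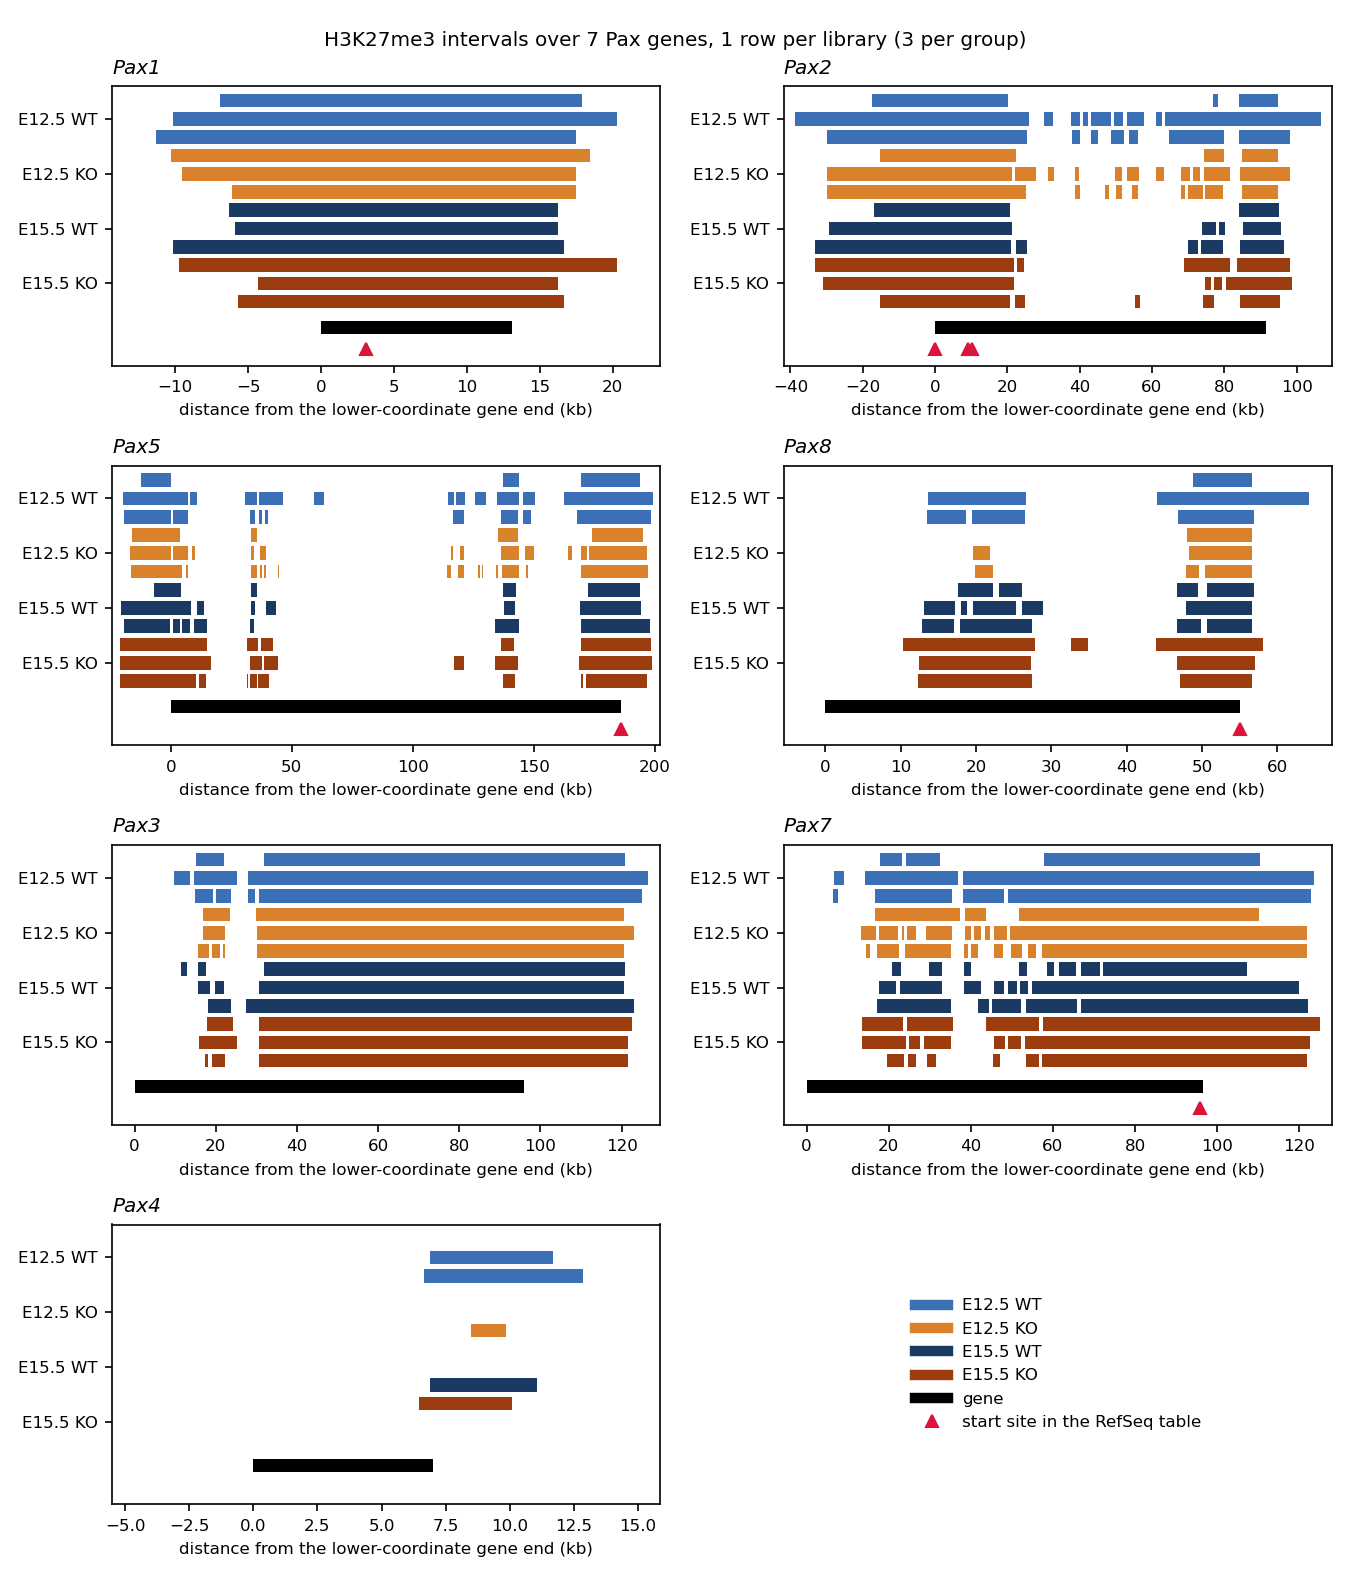
Position of each H3K27me3 interval over the 7 Pax genes in each of the 12 libraries, against the distance in kb from the lower-coordinate end of the gene. Bars are intervals, 3 rows per group, the black bar is the gene, and triangles are the start sites used (Pax3 and Pax4 are drawn without one). Pax1 is covered whole, Pax3 by 1 long interval, Pax5 and Pax8 in separate blocks, and Pax4 in 5 libraries only.

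Pax1 (chr2:147361930-147375049), which patterns the ventral somite that forms vertebrae, was covered whole in every library by a single interval of 20.6 to 30.4 kb. Its normalised counts were 7097, 5701 and 5685 in E12.5 WT and 5697, 7388 and 6371 in E12.5 KO. At E15.5 they were 5732, 5328 and 5564 in WT and 5287, 5857 and 4457 in KO. The genotypes overlapped at both stages. The log2 change in KO was 0.07 (SE 0.23) at E12.5 and -0.09 (SE 0.12) at E15.5, with adjusted p of 0.80 and 0.82 (edgeR quasi-likelihood test, Benjamini-Hochberg over all genes).

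Pax2 (chr19:44746601-44838269), needed for the kidney, the optic nerve and the midbrain-hindbrain boundary, carried its longest interval, 36 to 64.8 kb, over its start sites. Its normalised counts were 15805, 13438 and 12631 in E12.5 WT and 10921, 15402 and 12682 in E12.5 KO. At E15.5 they were 13923, 12987 and 12899 in WT and 12303, 14006 and 10279 in KO. Both stages showed overlapping genotypes, with log2 changes of -0.10 (SE 0.21) and -0.12 (SE 0.13). A separate region at the far end of the gene, chr19:44810201-44854400, held 9.1% ± 1.81 of the count over all Pax2 regions in E12.5 WT and 7.69% ± 0.801 in E12.5 KO (SD, n = 3 each). At E15.5 it held 8.41% ± 0.903 in WT and 9.93% ± 0.233 in KO. There the 3 KO libraries, at 9.67% to 10.1%, lay above the 3 WT libraries, at 7.82% to 9.45%, as in 7.09% of regions of genes with more than 1 region, while the normalised counts of the region overlapped.

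Pax5 (chr4:44524748-44710694), the factor that commits lymphoid cells to the B lineage and with Pax2 shapes the midbrain-hindbrain boundary, was marked in blocks that covered 14.7% to 42.9% of its window. Its normalised counts were 5070, 5378 and 4853 in E12.5 WT and 3401, 5289 and 5243 in E12.5 KO. At E15.5 they were 5313, 5338 and 5557 in WT and 5625, 6386 and 5197 in KO. KO replicate 1 was low at E12.5, where the other KO libraries lay inside the WT range. At E15.5 the ranges overlapped, with KO replicates 1 and 2 above every WT library and KO replicate 3 below them. The log2 change of the whole gene was -0.13 (SE 0.25) at E12.5 and 0.09 (SE 0.11) at E15.5, and leaving out KO replicate 1 gave 0.05 at E12.5.

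The whole-gene sum joined 2 ends that differed. The start-site region, chr4:44687401-44724000, which also holds the noncoding gene 5730488B01Rik, had 4766, 4487 and 4209 normalised counts in E12.5 WT and 2901, 4076 and 4079 in E12.5 KO. At E15.5 it had 4995, 4818 and 5069 in WT and 4460, 5218 and 4131 in KO. All 3 KO libraries were below WT at E12.5, as in 33% of all regions at that stage, and the genotypes overlapped at E15.5. Its log2 changes were -0.28 (SE 0.21) and -0.11 (SE 0.11), with adjusted p of 0.30 and 0.71 (edgeR, over all regions).

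The region at the 3′ end, chr4:44503601-44541400, starts 21.1 kb beyond the gene end and reaches 16.7 kb into the gene. It had 250, 553 and 438 normalised counts in E12.5 WT and 376, 993 and 896 in E12.5 KO. At E15.5 it had 474, 458 and 350 in WT and 984, 969 and 916 in KO. The 3 KO libraries were above all WT libraries at E15.5, as in 13.2% of all regions, whereas at E12.5 KO replicate 1 lay inside the WT range. The log2 change was 0.86 (SE 0.32) at E12.5, 1.17 (SE 0.13) at E15.5 and 1.01 (SE 0.20) over both stages, each fitted on the region as merged in the libraries compared and given without p because this change is the reason the gene was singled out. The difference of the change between the stages was 0.32 (SE 0.35) with depth scaling and -0.22 (SE 0.31) with TMM factors (trimmed mean of M-values, which centre on the bulk of genes).

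As a share of the count summed over all Pax5 regions, which needs no scaling between libraries, the 3′ region held 4.89%, 10.3% and 9.04% in E12.5 WT and 11.1%, 18.7% and 17% in E12.5 KO. At E15.5 it held 8.51%, 8.51% and 6.3% in WT and 17.5%, 15.2% and 17.6% in KO. Every KO library was above every WT library of its stage, as in 8.92% of regions of genes with more than 1 region at E12.5 and 7.09% at E15.5, and nothing is read from this for a gene chosen with it known. The means were 8.07% ± 2.82 and 15.6% ± 4.02 at E12.5, and 7.78% ± 1.28 and 16.8% ± 1.37 at E15.5 (WT and KO, SD, n = 3 each). Depth moved with genotype at E15.5, where all KO libraries were deeper than all WT libraries. At E12.5 WT replicates 2 and 3 were deeper than every KO library and had lower shares than every KO library, while within each genotype the shallowest library, replicate 1 in both, had the lowest share. The part of depth in the share was not tested. Per kb of merged region, the 3′ region held 6.62 to 14.6 normalised counts in WT and 9.95 to 26.3 in KO over both stages, against 115 to 138 in WT and 79.3 to 143 in KO for the start-site region, so it remained the thinner of the 2 blocks in both genotypes. These values divide by a width that is the same in every library, unlike the values per kb of interval given for whole genes.

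**Figure D2:**
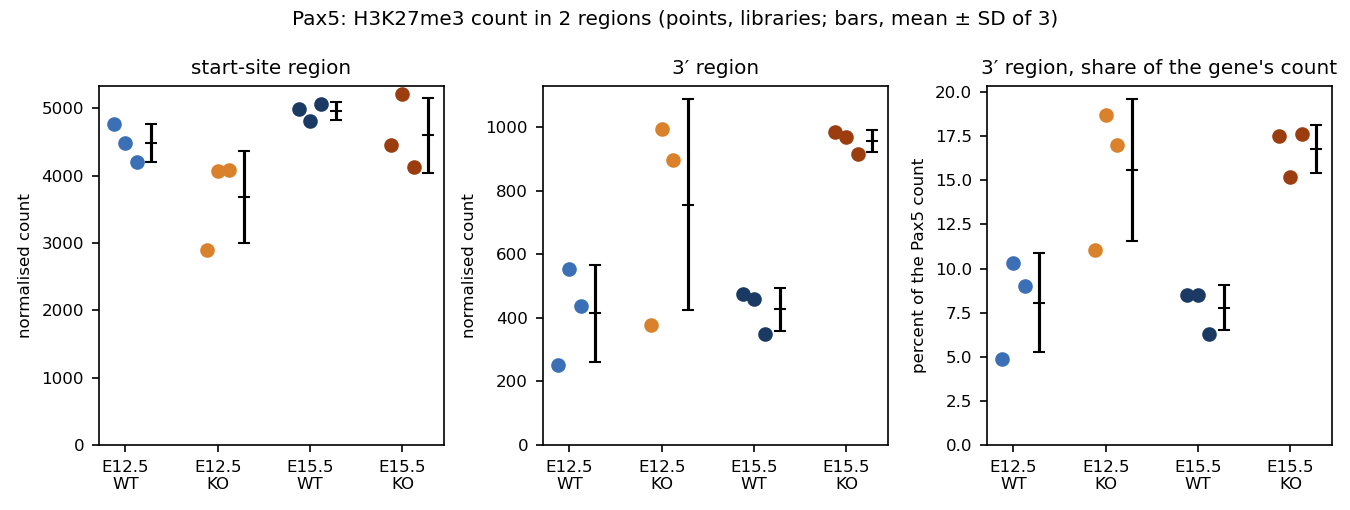
Normalised H3K27me3 count of the Pax5 start-site region (left) and 3′ region (middle), and the 3′ region as percent of the count over all Pax5 regions (right), by group. Points are libraries and bars the mean ± SD of 3; the KO shares, 11.1% to 18.7%, lie above the WT shares, 4.89% to 10.3%.

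Smaller Pax5 blocks inside the gene were weaker. The block at chr4:44555401-44571200 was called in 11 of 12 libraries and had 48.4, 40.2 and 19.1 normalised counts in E15.5 WT and 88.8, 74.7 and 57.2 in E15.5 KO, with KO above WT, as in 13.2% of all regions. It did not pass in the depth-scaled genotype fit at E15.5 (edgeR adjusted p from 0.049 to 0.33 with 1 library left out). At E12.5 it had 0, 79.3 and 38.4 in WT and 17.1, 31.5 and 53.4 in KO, which overlapped. The block at chr4:44658801-44668800 was called in all 12 and had 77.4 ± 37.4 in WT and 97.4 ± 8.53 in KO at E15.5 (SD, n = 3 each), which overlapped. Within KO the former block rose from E12.5 to E15.5 by 1.22 on the log2 scale (SE 0.40, edgeR adjusted p = 0.021 over all regions), the only 1 of 12 regions over the Pax genes called in that comparison with depth scaling, against 6.2% called higher among all regions, and leaving out 1 library moved the adjusted p up to 0.135. With TMM factors 4 of the 12 were called, 2 higher and 2 lower, against 25.9% of all regions called in either direction. The counts over Pax5 were known when the gene was chosen, so nothing is read from these calls.

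Pax8 (chr2:24420551-24475599), required for the thyroid and, with Pax2, the kidney, was the least marked of the 6 genes. Its normalised counts were 1050, 1279 and 1122 in E12.5 WT and 571, 730 and 958 in E12.5 KO. At E15.5 they were 1093, 1191 and 1291 in WT and 1323, 1416 and 1188 in KO. All KO libraries were below WT at E12.5, as were 33% of all genes tested there, and the genotypes overlapped at E15.5. The log2 change was -0.61 (SE 0.30, adjusted p = 0.18, edgeR) at E12.5, close to the median of all genes of -0.57, and 0.13 (SE 0.12, adjusted p = 0.69) at E15.5. The change in KO differed between the stages by 0.75 (SE 0.28, adjusted p = 0.14, edgeR), beside an all-gene median of 0.61. With TMM factors the difference was 0.18 (adjusted p = 0.52), beside a median of 0.02, and with DESeq2 it was 0.14 (adjusted p = 0.63). Leaving out E12.5 KO replicate 3 brought the depth-scaled difference to 0.96 with an adjusted p of 0.019 (edgeR). Leaving out 1 library also moved the number of all genes called in this comparison widely, as given in the closing section. Nothing is therefore read from this pass for Pax8.

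Inside Pax8 a second block, chr2:24430801-24449400, was called in 10 of 12 libraries and overlaps the noncoding gene Gm13415. It held 0, 8.9 and 8.47% of the count over all Pax8 regions in E12.5 WT and 0, 2.09 and 3.29% in E12.5 KO. At E15.5 the normalised counts were 89.9, 185 and 173 in WT and 258, 236 and 187 in KO, with KO above WT by a small margin, as in 13.2% of all regions. Its log2 change at E15.5 was 0.55 (SE 0.23, adjusted p = 0.24, edgeR), and it was not fitted at E12.5, where a library of each genotype had no interval. Without strand, intervals over Pax8 and Gm13415 cannot be assigned to either.

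Pax3 (chr1:78101267-78197136), which directs neural crest and migrating muscle precursors, had the largest count of the 7. A single interval of 88.8 to 98.6 kb held over 99% of it and ran beyond the higher-coordinate end of the gene, leaving 69.2% to 84.5% of the window covered. Its normalised counts were 18894, 15869 and 15416 in E12.5 WT and 14091, 20706 and 15674 in E12.5 KO. At E15.5 they were 16105, 15207 and 14982 in WT and 14481, 15266 and 12336 in KO. Genotypes overlapped at both stages, with log2 changes of 0.01 (SE 0.20) and -0.14 (SE 0.11).

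Pax7 (chr4:139737059-139833530), the partner of Pax3 that marks muscle stem cells, had 15470, 13248 and 13012 normalised counts in E12.5 WT and 11103, 16057 and 13288 in E12.5 KO. At E15.5 it had 11750, 11840 and 12100 in WT and 11502, 13128 and 10333 in KO. The genotypes overlapped again, with log2 changes of -0.04 (SE 0.21) and -0.03 (SE 0.11). The longest interval, 35.2 to 85.4 kb, lay over the start site and over the neighbouring noncoding gene Gm46873. A thinner block inside the gene, chr4:139750401-139774400, had 162, 364 and 296 normalised counts in E12.5 WT and 69.2, 135 and 179 in E15.5 WT, and these ranges overlapped at 162 and 179. It fell by 1.09 on the log2 scale between the stages in WT (SE 0.36, edgeR adjusted p = 0.025 over all regions), the only 1 of 11 regions over the Pax genes called there with depth scaling, against 44% called lower among all regions. With TMM factors it changed by -0.57 (adjusted p = 0.098), and 0 of the 11 were called lower and 2 higher, the start-site regions of Pax5 and Pax8, against 16.1% called higher among all regions. Leaving out 1 library moved the adjusted p of the depth-scaled fall up to 0.105. In KO the change was -0.86 (SE 0.33, adjusted p = 0.057) with depth scaling, and it was called with TMM factors (-0.86, adjusted p = 0.0092).

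Pax4 (chr6:28442334-28449340), which favours insulin-producing cells in the islet, stood apart. Its normalised counts were 0, 44.6 and 37.3 in E12.5 WT and 0, 0 and 16 in E12.5 KO, and at E15.5 0, 0 and 19.1 in WT and 20.4, 0 and 0 in KO. No group had an interval in all of its libraries, so the gene entered no fit and has no fold change. A value of 0 means only that no interval was called there. The intervals began near or past the higher-coordinate end of the gene, and that of E12.5 KO replicate 3 lay wholly outside the gene. Where called, the interval was 1.4 to 6.2 kb long and held 4.54 to 11.4 normalised counts per kb. For Pax4 the data thus go against a description of the 7 as a uniformly marked set.

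**Figure D3:**
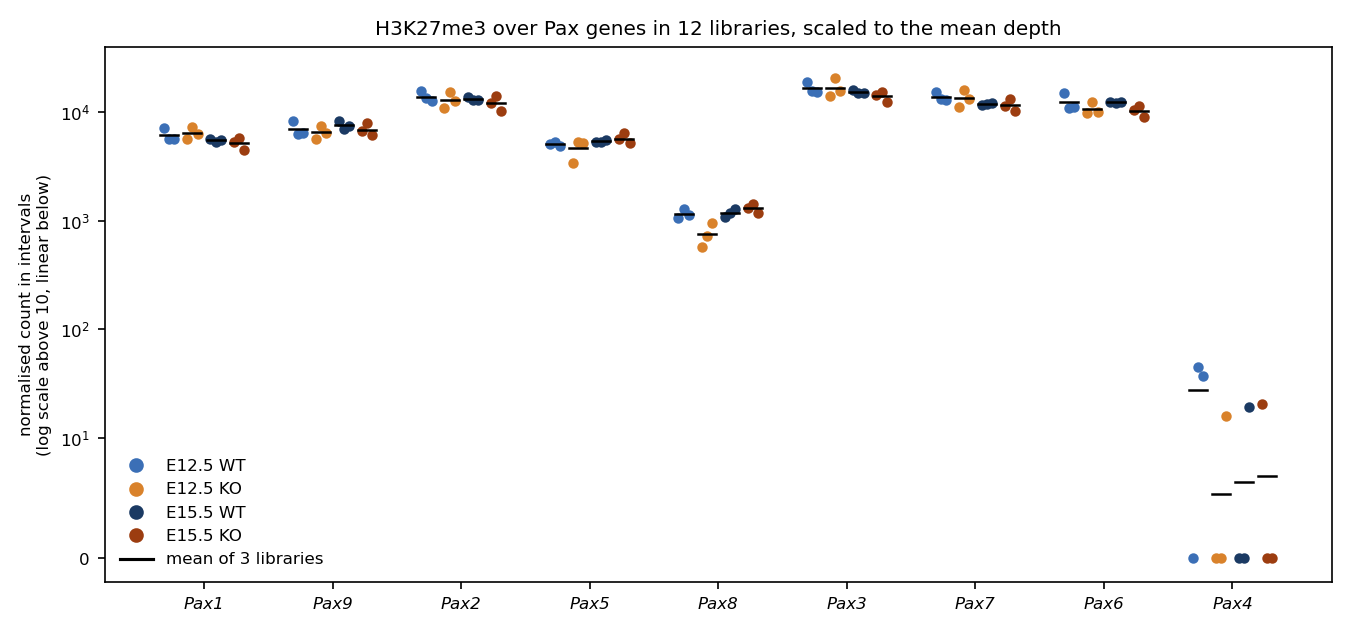
Normalised H3K27me3 counts over each Pax gene in each library, on an axis that is logarithmic above 10 and linear below. Points are libraries, coloured by group, and lines are means of 3; Pax8, at 571 to 1416, lies below the other marked genes, and Pax4 has values above 0 in 5 libraries only.

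The genotype comparison asks whether the mark over these genes differed when Ezh2 was deleted in the Nkx2-1 lineage. At E12.5, 0 of the 6 fitted Pax genes passed the threshold (edgeR, adjusted p below 0.05), against 4.04% of the 3140 genes tested, which were 127 genes, all lower in KO. With TMM factors 38 were lower and 9 higher (1.5%), and again no Pax gene was among them. The median change of the 6 was -0.07 beside -0.57 over all genes, and with TMM factors 0.46 beside -0.05. The scaling thus moved the all-gene median, and Pax2, Pax5 and Pax7 changed sign with it. Relative to the all-gene median they stood 0.47, 0.44 and 0.53 higher with depth scaling and 0.48, 0.43 and 0.53 higher with TMM factors, Pax1 0.65 and 0.65, and Pax3 0.58 and 0.59. Pax8 stood at -0.04 and -0.05. The comparison genes also stood higher, Pax9 by 0.47 and 0.47 and Pax6 by 0.37 and 0.37. The 46 fitted partner genes described below had a median change of -0.24 with depth scaling, so standing above the all-gene median was not particular to these Pax genes. DESeq2 called none of the 6 either, and none had an unadjusted p under 0.05, against 905 of all genes.

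At E15.5, 0 of 6 passed, against 0.482% of 2695 genes, with 2 lower and 11 higher in KO. The changes of the 6 ran from -0.14 in Pax3 to 0.13 in Pax8, beside an all-gene median of -0.01, and none had an unadjusted p under 0.05, against 303 of all genes. The 95% intervals were -0.16 to 0.33 for Pax5, -0.37 to 0.19 for Pax1 and -0.40 to 0.12 for Pax3. Over both stages 0 of 6 passed, against 0.963% of 2492 genes, where 23 were lower and 1 higher (49 lower and 53 higher, 4.09%, with TMM factors, where again no Pax gene passed). For the difference of the genotype change between the stages 0 of 6 passed, against 0.562% of 2492.

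**Figure D4:**
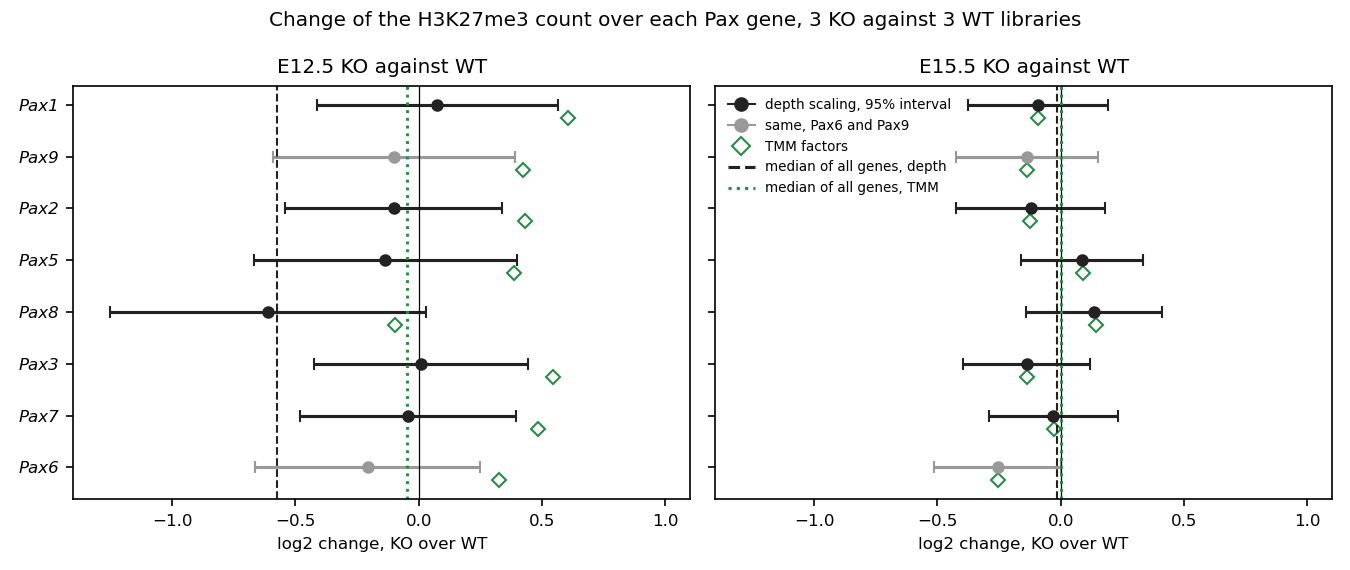
Log2 change of the H3K27me3 count in 3 KO over 3 WT libraries for each fitted Pax gene at E12.5 (left) and E15.5 (right). Circles with bars are the depth-scaled change and its 95% interval, diamonds the change with TMM factors, and vertical lines the medians of all genes, -0.57 and -0.05 at E12.5; all intervals span 0, and that of Pax8 at E12.5 ends just above it.

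Among merged regions over the 7 genes, 0 of 11 were called at E12.5, against 10.8% of all 3236 regions, and 1 of 13 at E15.5, against 4.9% of 2774. With TMM factors 1 of 11 was called at E12.5, against 7.42%. The called region is in each case the Pax5 3′ region, which the choice of the gene had in view, so nothing is read from these counts. DESeq2 also called it at E12.5, together with the Pax5 block at chr4:44659001-44668800 (log2 change 0.70, adjusted p = 0.022). That block had 139 ± 43.0 normalised counts in E12.5 WT and 151 ± 39.4 in E12.5 KO (SD, n = 3 each), which overlapped. Its depth-scaled log2 change ran from -0.07 to 0.37 with 1 library left out. The share of all regions called by DESeq2 is not given here, so nothing is read from its call. Covered bases of Pax5 and Pax8 were greater in all KO than in all WT libraries at E15.5, as for 8.35% of genes: 51.7, 62.9 and 45.5 kb against 30.7, 43.3 and 43.5 kb for Pax5, and 33.5, 25.2 and 24.8 kb against 16.6, 22.2 and 23 kb for Pax8. The KO libraries of that stage were also the deeper ones, and within E12.5 WT the shallowest library covered 28.1 kb of Pax5 and the deepest 81.9 kb, although within E15.5 KO the deepest library covered the least. The part of depth in the difference was not tested.

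The normalised count over 12 MGE and forebrain marker genes summed to 17712 to 21743 in E15.5 KO, with intervals in 12 of 12, and to 13128 to 16504 in E15.5 WT, with intervals in 9 to 12. Dlx5 and Dlx6 had the same counts in every library, and these entered the sum for each of them. Dlx1 and Dlx2 shared a count in some libraries only, such as E15.5 WT replicate 3 (1616) and KO replicate 1 (1409). In E15.5 WT replicates 1 and 2 they had 1197 and 536, and 1083 and 553. The part of such double counting in the E15.5 difference was not tested. At E12.5 the sums overlapped, at 24798 to 35581 and 23890 to 26877. Over 5 striatal genes, 4 or 5 of which had intervals, the sum was lower in KO at both stages, 7041 to 9340 against 12410 to 14385 at E12.5 and 6553 to 8458 against 8623 to 10834 at E15.5. Ebf1 held the largest part of it, with 3445 to 4636 in KO against 7281 to 8419 in WT at E12.5. Ebf1 and Meis2 were lower in KO at both stages. Isl1 and Foxp1 overlapped at E15.5. Gsx2 overlapped at both stages, at 1231 to 1963 in KO and 929 to 1262 in WT at E12.5. Over 6 dorsal pallium genes the sum was 14837 to 19009 in KO against 20158 to 24440 in WT at E12.5, while the genotypes overlapped in E15.5 libraries, at 15929 to 18654 and 17831 to 18973. Over the blood and vessel genes it was 458 to 487 in KO against 358 to 400 in WT at E15.5, and at E12.5 it overlapped at 342 to 653 and 572 to 834. Only Cldn5 and Kdr had counts in this last sum. At E15.5 KO lay above WT in 11.1% of single genes. No marker of the MGE, striatal or pallial list was at 0 in all libraries. The striatal sum separated the genotypes at both stages, as the share of the Pax5 3′ region did, but KO lay below WT in 33% of single genes at E12.5 and in 8.09% at E15.5. The part of tissue make-up in that region was not tested. In bulk tissue, fewer cells carrying the mark and less of the mark per cell cannot be told apart.

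Between the stages in WT, 0 of the 6 genes passed with depth scaling, against 37.5% of 2624 genes (939 lower and 45 higher at E15.5). With TMM factors 2 of 6 passed, Pax5 and Pax8, both higher, against 10.3% higher among all genes (449 lower and 271 higher). The changes were 0.08 (SE 0.09) for Pax5 and 0.05 (SE 0.13) for Pax8 with depth scaling, where the all-gene median was -0.58, and 0.55 and 0.52 with TMM factors, where it was -0.10 (adjusted p 0.03 and 0.011). Relative to that median Pax5 stood 0.66 and 0.64 higher, and Pax8 0.63 and 0.62 higher. The changes of Pax1, Pax2, Pax3 and Pax7 lay between -0.23 and -0.07 with depth scaling and between 0.22 and 0.38 with TMM factors, so their direction depended on the scaling.

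Between the stages in KO, 0 of 6 passed with depth scaling, against 9.62% of 3003 genes (165 lower and 124 higher). Pax8 had the largest change of the 6, 0.80 (SE 0.30, adjusted p = 0.086, edgeR), from 753 ± 195 normalised counts at E12.5 to 1309 ± 115 at E15.5 (SD, n = 3 each), with no overlap between 571 to 958 and 1188 to 1416, and 11.4% of genes lay higher at E15.5 without overlap. It passed with TMM factors at 0.81 (adjusted p = 0.0025), against 16.5% of genes (231 lower and 265 higher), and its alternatives ranged in adjusted p from 1.5e-06 to 0.349. Pax5 changed by 0.30 (SE 0.24, adjusted p = 0.55). The WT and KO stage comparisons share no library with each other, but each shares its libraries with the genotype comparisons.

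Across the 12 libraries the log2 counts of Pax1, Pax2, Pax3 and Pax7 went together, with Pearson's r from 0.82 to 0.93 for Pax1 with the other 3, while Pax5 went with Pax8 (r = 0.82) and not with Pax1 (r = -0.01). These values are descriptions over 12 libraries that share groups, depth scaling and the choice of intervals. Of 2491 genes, those most like Pax5 were Nrn1 (0.92), Tbr1 (0.92), Psmd14 (0.92), Twist1 (0.91) and Onecut2 (0.91), where Psmd14 and Tbr1 share an interval. Pax8 ranked 65 and Pax9 482 by the same measure. A single library, E12.5 KO replicate 1, had the lowest normalised count of Pax5 (3401), Pax8 (571), Tbr1 (1663) and Twist1 (2469). Its part in these r values was not tested.

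Genes known to work with Pax factors were read from 7 lists with 62 genes: a network that includes Eya1 and Dach1, the midbrain-hindbrain organiser, muscle and neural crest, B cell, thyroid and kidney, islet, and sclerotome genes. At E12.5, 2 of the 46 fitted were lower in KO and none higher, a share close to the 4.04% of all genes. They were Ebf1, a B-lineage factor also used in the striatum (-0.96, SE 0.23, edgeR adjusted p = 0.032), and Foxc2, a sclerotome factor (-0.96, SE 0.25, adjusted p = 0.043). Neither passed with TMM factors (adjusted p 0.35 and 0.44), and the adjusted p reached 0.40 and 0.88 under the alternatives. Foxc2 had 7551, 13821 and 13878 normalised counts in E12.5 WT and 5307, 6475 and 6281 in E12.5 KO. At E15.5, 1 of 44 was higher and none lower, against 0.482% of all genes, and with a count of 1 no difference in share is read. It was Dach1, a corepressor that acts with Eya proteins, with 41.5, 98.4 and 53.7 normalised counts in WT and 354, 289 and 347 in KO (2.32, SE 0.29, adjusted p = 0.025, edgeR, up to 0.145 under the alternatives). The medians of the 7 lists ran from -0.89 in the B cell list to -0.12 in the organiser list at E12.5, and from -0.35 in the B cell list to 0.08 in the sclerotome list at E15.5. Over both stages, where 0.963% of all genes were called, Ebf1 and Sall1, a kidney regulator, were lower (-0.66 and -0.83, edgeR adjusted p = 0.043 each, and 0.066 and 0.032 with TMM factors), where Sall1 was named after its values were seen.

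Pax6 had 15038, 10856 and 11272 normalised counts in E12.5 WT and 9833, 12334 and 10015 in E12.5 KO, and at E15.5 12466, 12220 and 12320 in WT and 10401, 11497 and 9099 in KO. The 3 KO libraries were below WT at E15.5, as in 8.09% of genes, with a log2 change of -0.26 (SE 0.11, adjusted p = 0.44, edgeR). Pax9 changed by -0.10 (SE 0.23) and -0.14 (SE 0.12), so no gene of the 8 fitted in the family passed in either genotype comparison.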

How the data were processed

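H3K27me3 CUT&Tag intervals of 12 libraries, 3 for each genotype and stage, were deposited by the authors as 1 list per library, with a whole-number count and a score for each interval. Per the submitters' processing notes, cutadapt, Bowtie2, SAMtools, Picard, deepTools and SICER were used with the builds GRCm38 and mm10, and their roles, versions and settings are not given in the sources used here. The deposited score of single-window intervals equals minus the natural log of a Poisson probability at 1 mean count per 200 bp window per library, within 0.00407. That mean served as depth, which assumes that it is proportional to the reads.

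Counts of intervals overlapping a gene body ± 2500 bp by at least 1 bp were summed for 20665 autosomal protein-coding genes of the RefSeq table. Genes with an interval in every library of a comparison were fitted with edgeR 4.0.16 in R 4.3.3 (quasi-likelihood test, depth as library size), with Benjamini-Hochberg adjustment over all genes and a threshold of 0.05. SE is the size of the log2 change over the square root of F, and 95% intervals use the t distribution at that test's degrees of freedom. Merged regions were fitted the same way, a step added after the data were seen. The fit was tested on simulated data. There were 6 comparisons: KO against WT at each stage and over both, its difference between the stages, and E15.5 against E12.5 in each genotype. Alternatives were TMM factors, DESeq2 1.42.0, other filters, windows and features, a replicate block and leaving out each library. P-values set each change against the spread between these samples, estimated with information shared across genes. A sample could combine MGEs, so this spread need not be that between embryos.

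The 7 genes and the lists were chosen with earlier results of these data known. Named were the 9 Pax genes, list genes called in a genotype comparison at E12.5 or E15.5 (at most 3 per list), and the 5 genes with the highest Pearson's r with Pax5 of log2(normalised count + 1). The 6 heterozygous samples were not analysed here.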

Additional observations from a re-analysis of the deposited data

How the results depend on the processing

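The number of genes called moved with the processing, while no Pax gene was called in a genotype comparison within a stage or over both under any alternative run. Depth is itself an estimate, counts exist only inside called intervals, and shallow libraries miss weak ones, so an absent interval is no measure of absence. At E12.5 the 127 genes became 47 with TMM factors, 6 with genes that lack an interval in some libraries let in, 220 with counts prorated to the window, 272 with a 10000 bp window, and 11 to 902 without 1 library (11 without KO replicate 1, 902 without KO replicate 3). At E15.5 the 13 became 72 with DESeq2, 1 with the looser interval filter, 77 with merged regions, and 0 to 13 without 1 library. Over both stages the 24 became 102, 217, 0, 48 and 135 with TMM factors, DESeq2, the looser filter, prorated counts and merged regions, and 0 to 40 without 1 library. The 14 genes whose genotype change differed between the stages became 6, 43, 25, 43 and 106 with TMM factors, DESeq2, prorated counts, the wider window and merged regions, and 0 to 957 without 1 library. For stage, the 984 in WT became 517 with the looser filter and 85 to 1445 without 1 library, and the 289 in KO became 496, 563 and 105 with TMM factors, DESeq2 and the looser filter, and 174 to 267 without 1 library. The replicate block gave 305 genes at E12.5, 0 at E15.5, 5 over both and 52 for the difference between the stages. Same-numbered WT and KO libraries had correlated deviations of 0.12, 0.06 and 0.04 at E12.5 and -0.24, -0.17 and -0.36 at E15.5, so the numbers were not taken as pairs. Pax1 was covered to 77% with the wider window, and the E15.5 difference in the Pax5 3′ share was 10.8 points with only the intervals at the gene end.

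Signs of small log2 changes turned with the scaling, given here with TMM factors and then DESeq2, and the cause was not tested. At E12.5 they were 0.43 and 0.48 for Pax2, 0.38 and 0.44 for Pax5, and 0.49 and 0.54 for Pax7. Over both stages they were 0.26 and 0.27 for Pax1, 0.16 and 0.17 for Pax2, 0.21 and 0.22 for Pax3, 0.24 and 0.26 for Pax5, 0.23 and 0.25 for Pax7, and 0.0322 and 0.0493 for Pax8. For the difference between the stages they were -0.35 and -0.38 for Pax5, -0.56 and -0.60 for Pax7, and -0.22 and -0.34 for the Pax5 3′ region. For stage in WT they were 0.29 and 0.39 for Pax1, 0.38 and 0.47 for Pax2, 0.33 and 0.43 for Pax3, and 0.22 and 0.32 for Pax7. Prorated counts gave -0.0661 for Pax5 at E15.5, 0.0285 for Pax1 over both stages, 0.0645 for Pax1 by stage in WT and -0.0192 for Pax7 in the difference, where merged regions gave 0.0492 for Pax2 and -0.0055 for Pax7. The replicate block gave -0.0049 for Pax3 at E12.5.

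Leaving out 1 library also turned signs. At E12.5 the ranges were -0.0299 to 0.19 for Pax1, -0.24 to 0.0087 for Pax2, -0.17 to 0.12 for Pax3, -0.24 to 0.0463 for Pax5 and -0.19 to 0.0771 for Pax7. At E15.5 they were -0.19 to 0.008 for Pax1 and -0.12 to 0.0499 for Pax7. Over both stages they were -0.0642 to 0.0448 for Pax1, -0.0739 to 0.0685 for Pax5 and -0.10 to 0.0179 for Pax7. In the difference they were -0.13 to 0.12 for Pax2, -0.26 to 0.0308 for Pax3 and -0.11 to 0.16 for Pax7. By stage they were -0.14 to 0.0258 for Pax2, -0.0106 to 0.13 for Pax8 and -0.22 to 0.28 for the Pax5 3′ region in WT, and -0.20 to 0.0474 for Pax2 in KO.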
